A study of Homo sapiens with 64 samples.

Results

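Genes of potassium channels (symbols starting with KCN) and of voltage-gated calcium channels (symbols starting with CACN) were followed in BEAS-2B cells, a virus-transformed line from human bronchial epithelium, after budesonide, formoterol or both. The members were all probe sets with a single platform gene symbol of either kind, and where a gene had several, the brightest on average across the arrays stood for it. This gave 114 of the 18132 genes measured, drawn from 269 probe sets. Each treatment was collected after 1, 2, 6 and 18 h with 4 arrays a group, which made 16 groups and 64 arrays. The groups were cells given 100 nM budesonide together with 10 nM formoterol (the combination), 100 nM budesonide alone, 10 nM formoterol alone, and untreated cells of the same time. All of them were 1 cell line kept without serum overnight before the drugs were added, so donor airway tissue was not part of the design. The submitters describe 4 independent determinations for each condition, and p-values measure the spread between these.

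Potassium channels let potassium leave the cell and hold the membrane potential negative, which sets the driving force for chloride secretion and calcium entry in airway epithelium. Voltage-gated calcium channels open on depolarisation and are best known from nerve, muscle and endocrine cells. Their pore-forming subunits work with auxiliary subunits that move the channel to the membrane or change its gating. Budesonide is a glucocorticoid that acts through a nuclear receptor on gene transcription, and formoterol is an agonist of the beta2-adrenoceptor that raises cyclic AMP.

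Values are log2 intensities from RMA, in which 1 unit is a doubling, and the array medians lay between 4.87 and 4.95. Genes known to respond to each drug marked the treated arrays. TSC22D3, a glucocorticoid-induced leucine zipper gene, was higher by 3.94 ± 0.11 (log2 difference ± SE) with budesonide at 1 h, and NR4A3, a nuclear receptor gene induced by cyclic AMP, was higher by 5.29 ± 0.16 with formoterol at 1 h. The keratin genes KRT5, KRT8 and KRT18 and the tight junction gene CLDN1 were above background in all 16 groups, and CDH1 was in 12. The other epithelial genes, EPCAM and KRT19, were at background in all 16. Of the 4 mesenchymal genes VIM and CDH2 were above it in all 16 groups, and PDGFRA and DCN in none. Of the 3 measured ciliated and secretory genes FOXJ1 and MUC5B were above it in all 16, and SCGB1A1 in none. Of the 4 measured leukocyte genes 3 were at background, among them PTPRC, and CD68 was above it. Of the 3 endothelial genes CDH5 was at background, while VWF was above it in 16 groups and PECAM1 in 15. Of the 4 neuronal and neuroendocrine genes 3 (SYP, SNAP25 and RBFOX3) were above it, as were 3 of the 4 smooth muscle genes (MYH11, DES and CNN1). Their part in the channel values was not tested.

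Most of the channel genes did not rise above background. Background was set from 333 olfactory receptor genes, most of which were assumed to be silent in these cells, and this was not tested. A gene was counted as at background when none of its 16 group means exceeded the 95th percentile of these genes, 4.08. On this measure 60 of the 114 channel genes (52.6%) were at background in all groups, against 30.8% of the 18018 other genes. A further 16 exceeded the level in some groups and 38 in all 16. The median level was 3.74 for the channel genes and 5.75 for the other genes. The count depends on the level chosen: with the lower quartile of all values, 3.02, only 26 of the 114 were at background. With the mean of a gene's probe sets in place of the brightest, 80 of the 114 were, among them CACNA1C, CACNA1D and CACNA1G, which have 8, 4 and 3 probe sets. Intensities depend on the probe sequence as well as on the transcript, so levels of different genes were set against background only and not against each other. A level above background does not by itself show that a gene is expressed. Of the 4 neuronal and neuroendocrine genes 3 were above it in all 16 groups, and so were 3 of the 4 smooth muscle genes. Whether the members above background are expressed in these cells was not tested.

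Voltage-gated potassium channel subunits were mostly at background, 22 of 34. The 8 above it in all groups were KCNA7, KCNC1, KCNC4, KCNG2, KCNH1, KCNH3, KCNQ1 (the pore of a cyclic AMP-regulated epithelial current) and KCNS3, and KCNA1, KCNH6, KCNH7 and KCNS1 exceeded it in some. Those at background were KCNA10, KCNA3, KCNA4, KCNA5, KCNB2, KCNC2, KCND1, KCND2, KCND3, KCNF1, KCNG1, KCNG3, KCNG4, KCNH2, KCNH4, KCNH5, KCNH8, KCNQ3, KCNQ5, KCNS2, KCNV1 and KCNV2. Inward rectifiers, which pass current more easily into the cell than out of it and stabilise the resting potential, were at background for 10 of 14: KCNJ1, KCNJ10, KCNJ13, KCNJ14, KCNJ15, KCNJ16, KCNJ5, KCNJ6, KCNJ8 and KCNJ9. KCNJ2, KCNJ11 and KCNJ12 were above it in all groups and KCNJ4 in some. Of the 15 two-pore genes, whose channels carry leak current, 7 were at background (KCNK10, KCNK12, KCNK13, KCNK17, KCNK18, KCNK5 and KCNK9). KCNK1, KCNK2, KCNK4, KCNK6, KCNK7 and KCNK16 were above it in all groups, and KCNK3 and KCNK15 in some.

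The 7 genes with KCNMA, KCNN, KCNT or KCNU symbols were grouped as calcium- or sodium-activated, a label taken from the symbol that need not hold for KCNU1. In this group KCNN3 and KCNU1 were at background. KCNMA1 (the pore of the BK channel), KCNN1 and KCNN4 (the intermediate-conductance channel of epithelia) were above it throughout, and KCNT1 and KCNT2 in some groups. Of 15 auxiliary potassium channel genes, 5 were at background (KCNE2, KCNE3, KCNE4, KCNIP4 and KCNMB1), 6 were above in all groups (KCNAB2, KCNAB3, KCNIP1, KCNIP3, KCNMB2 and KCNMB4), and KCNAB1, KCNE5, KCNIP2 and KCNMB3 in some. Of the 10 pore-forming calcium channel genes, CACNA1C and CACNA1D (L-type) and CACNA1G and CACNA1I (T-type) were above background in all groups. CACNA1B exceeded it in some, and CACNA1A, CACNA1E, CACNA1F, CACNA1H and CACNA1S in none. Auxiliary calcium channel genes were above it in all groups for 8 of 15 (CACNA2D2, CACNB1, CACNB2, CACNG1, CACNG4, CACNG6, CACNG7 and CACNG8) and in some for CACNA2D3 and CACNB3. The other 5, CACNA2D1, CACNA2D4, CACNG2, CACNG3 and CACNG5, were at background. The auxiliary label was taken from the symbol and need not hold for every CACNG gene. The remaining 4 symbols (KCNIP4-IT1, KCNJ5-AS1, KCNQ1OT1 and KCNRG) name no channel subunit, and all 4 were at background. The plot of levels by role shows these classes.

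**Figure D1:**
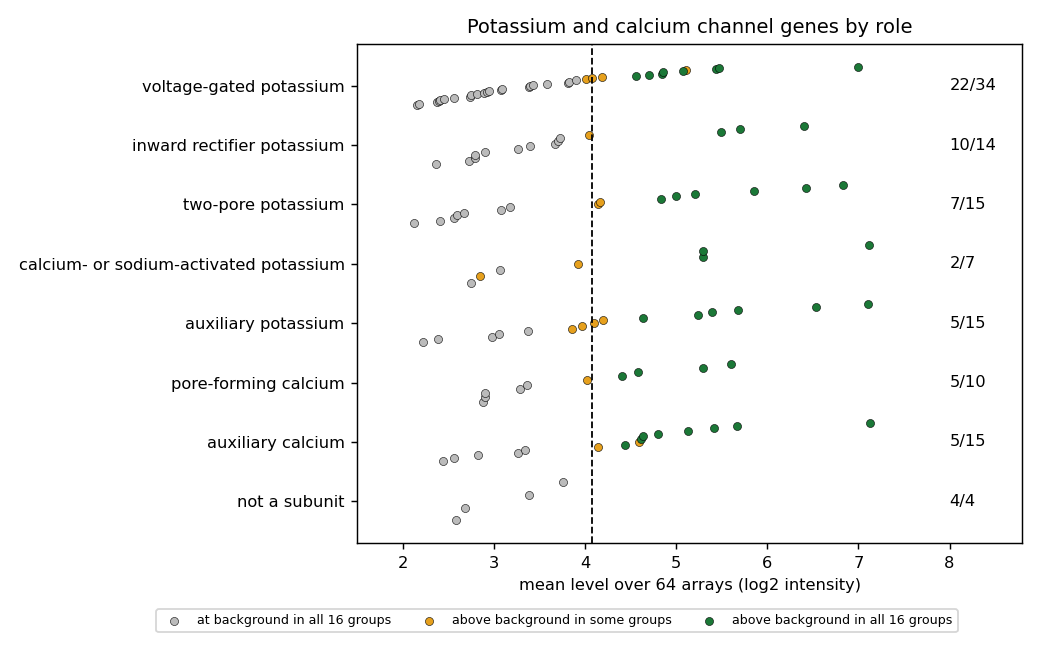
Mean log2 intensity over 64 arrays (horizontal axis) of each of the 114 genes, grouped by role (rows), with 1 point a gene. The dashed line is the background level of 4.08, colours give the class over the 16 groups, and the figures at the right count the genes at background of all in the row. These include 22 of 34 voltage-gated potassium genes and 2 of 7 in the row labelled calcium- or sodium-activated, which was grouped by symbol.

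Few channel genes passed the test, and CACNA2D3, KCNJ2, KCNK2, KCNT2, KCNIP3, KCNMA1, KCNIP1 and KCNH7 changed at least 2-fold. A gene was called at a Benjamini-Hochberg adjusted p under 0.05 over all 18132 genes within a comparison, from limma. Against untreated cells, 22 of 114 (19.3%) were called for at least 1 treatment and time, and 37.8% of all genes were. With budesonide 1 member was called at 1 h (0.998% of all genes), 1 at 2 h (3.94%), 8 at 6 h (14.2%) and 12 at 18 h (18.3%). The combination gave 2 at 1 h (2.76% of all genes), 7 at 2 h (9.49%), 9 at 6 h (18.6%) and 12 at 18 h (21.0%). Formoterol gave 1 at 1 h (1.34%), 2 at 2 h (4.60%), 6 at 6 h (4.81%) and none at 18 h by limma (1.11%), where 8 had an unadjusted p under 0.05. At 6 and 18 h the shares of members called with budesonide and with the combination, from 7.02% to 10.5%, lay below those of all genes, and the share with formoterol at 6 h, 5.26%, lay near it. These shares include genes at background, which were 52.6% of members and 30.8% of other genes. Of the 54 members above background in at least 1 group, 8 and 10 were called with budesonide at 6 and 18 h. With the combination 9 and 11 of the 54 were called, and with formoterol at 6 h 5. Of the 12528 genes of any kind in that class, 19.9% and 25.4%, 25.8% and 29.2%, and 6.79% were called.

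The directions differed by time. At 18 h 7 members were higher with budesonide (8.56% of all genes) and 5 lower (9.78%), and with the combination 7 were higher (10.3%) and 5 lower (10.7%). At 6 h all 6 members called with formoterol were higher (2.76% of all genes). Of these calls only that of KCNK2 held whichever array was left out, while those of CACNA2D3, KCNG1, KCNH1, KCNK1 and KCNK15 did not. KCNG1, at background in all groups, differed by 0.58 there (adjusted p = 0.012), a call lost without any of 4 arrays. Of the calls at 18 h, 5 with budesonide reached 2-fold (2.66% of all genes) and 6 with the combination (3.22%). At 6 h budesonide gave 4 of that size (2.20% of all genes), the combination 5 (3.04%) and formoterol 1 (0.574%). Median log2 differences over the 114 members were close to 0, as over all genes: 0.07 for members and 0.03 for all genes with budesonide at 18 h, and 0.04 and 0.03 with the combination. The 3 treatments of a time share their untreated arrays, and their values are given side by side. Without all replicate 1 arrays, formoterol at 6 h called 2 members and the combination at 2 h called 3. Fewer arrays can also lower the calls over all genes, so these counts are no result about the channel genes in particular.

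CACNA2D3, an alpha2delta subunit that helps carry calcium channels to the cell surface, showed the largest differences. It was at or below background in untreated cells and far above it after 6 h of budesonide. At 6 h the arrays read 8.30, 8.37, 8.23 and 8.64 with the combination, 8.05, 8.01, 8.04 and 7.98 with budesonide and 4.24, 4.69, 3.92 and 4.14 with formoterol, against 3.37, 3.31, 3.62 and 3.59 in untreated cells. No array given budesonide came near the others. The log2 difference was 4.91 ± 0.18 for the combination (adjusted p = 4.89e-31), 4.55 ± 0.18 for budesonide (adjusted p = 5.92e-29) and 0.78 ± 0.18 for formoterol (adjusted p = 0.00367). Counted from the background level and not from the untreated mean, the 6 h levels were 19.8-fold and 15.4-fold above it with the combination and with budesonide.

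At 18 h CACNA2D3 stayed high. The combination arrays read 7.47, 7.51, 7.40 and 7.41 and the budesonide arrays 7.88, 7.88, 7.67 and 8.22, against 3.05, 3.10, 3.29 and 2.94 in untreated cells, and the formoterol arrays (3.11, 3.46, 3.20 and 3.0) overlapped the untreated ones. The log2 differences were 4.36 ± 0.18 with the combination and 4.82 ± 0.18 with budesonide (adjusted p = 2.46e-28 and 2.86e-30). Combination and budesonide differed by -0.46 ± 0.18 at 18 h, which missed the threshold (adjusted p = 0.399). The rise had begun at 2 h, with arrays at 4.04, 4.92, 3.83 and 4.09 with the combination and 3.59, 4.83, 3.63 and 3.83 with budesonide, against 3.06, 3.57, 3.0 and 2.91 in untreated cells. These were differences of 1.08 ± 0.18 (adjusted p = 8.65e-06) and 0.83 ± 0.18 (adjusted p = 0.00162), with group means near the background level. Replicate 2 was the highest array of both. Without it in the budesonide group the 2 h difference was 0.55 (adjusted p = 0.0751), and a fit of those 2 groups alone gave adjusted p = 0.127. The formoterol difference at 6 h was 0.63 without replicate 2 of that group (adjusted p = 0.0501). The other CACNA2D3 probe set averaged 2.27, at background, and none of its differences passed (0.02 with budesonide at 6 h and 0.11 at 18 h).

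KCNJ2, the inward rectifier Kir2.1 that clamps the resting potential, rose with each drug at 1 h, while at 6 and 18 h it passed only in the groups with budesonide. At 1 h it read 6.97, 6.81, 6.85 and 7.31 with the combination, 6.62, 6.37, 6.41 and 6.26 with budesonide and 6.89, 6.66, 6.65 and 6.94 with formoterol, against 5.73, 5.98, 5.54 and 5.88 in untreated cells. All treated arrays exceeded all untreated ones. The log2 differences were 1.21 ± 0.14 with the combination (adjusted p = 5.13e-10), 0.63 ± 0.14 with budesonide (adjusted p = 0.00328) and 1.00 ± 0.14 with formoterol (adjusted p = 1.89e-07). Without all replicate 1 arrays the budesonide difference was 0.55 (adjusted p = 0.178). Thus KCNJ2 was the only member called at 1 h with either single drug, and the only one called with the combination apart from KCNG3, which was at background.

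At 2 h the KCNJ2 differences were smaller, at 0.52 ± 0.14 with the combination (adjusted p = 0.00624, and 0.0540 without untreated replicate 3). At 6 h the gene was again high wherever budesonide was present: 7.03, 7.0, 6.89 and 7.20 with the combination and 7.14, 6.80, 6.75 and 7.16 with budesonide, while formoterol gave 5.63, 6.36, 5.43 and 5.75 and untreated cells 5.99, 5.74, 5.59 and 5.63. Formoterol and untreated arrays overlapped. At 18 h the arrays read 7.27, 7.71, 7.67 and 7.67 with the combination and 7.64, 7.78, 7.58 and 7.56 with budesonide, against 6.15, 6.05, 5.98 and 5.84 in untreated cells. These were differences of 1.57 ± 0.14 and 1.64 ± 0.14 (adjusted p = 1.15e-14 and 3.16e-15), and the formoterol arrays (5.81, 5.63, 5.63 and 5.97) overlapped the untreated ones. The formoterol effect on KCNJ2 differed between times (moderated F test, adjusted p = 2.21e-05), as did the budesonide effect (adjusted p = 7.26e-09). A second KCNJ2 probe set averaged 2.26, at background, and passed in none of these comparisons.

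KCNK2, the mechanically and lipid-gated leak channel TREK-1, rose to the same level with each drug at 6 h. The arrays read 7.48, 7.02, 7.27 and 7.83 with the combination, 7.71, 7.03, 6.89 and 7.50 with budesonide and 7.36, 7.26, 7.24 and 7.27 with formoterol, against 6.33, 6.29, 5.88 and 5.89 in untreated cells. The 3 treated groups overlapped each other and none overlapped the untreated group. Each drug alone gave a log2 difference of 1.19 ± 0.18 (adjusted p = 3.49e-07 with budesonide and 1.33e-06 with formoterol), and the combination gave 1.31 ± 0.18 (adjusted p = 2.04e-08). The combination was thus below the sum of both drugs, by -1.07 ± 0.25 (interaction, adjusted p = 0.0154). It was the only interaction called among members in the fit without a block (0.722% of all genes at 6 h). In a paired fit, with the replicate number within each time as a block, 2 further interactions passed at 6 h. They were those of KCNMA1 (0.61 ± 0.11, adjusted p = 0.000335) and KCNH1 (-0.32 ± 0.09, 0.0336). Without the block no member's interaction was called by limma at 1 h (0.171% of all genes), 2 h (0.590%) or 18 h (0.276%), with 2, 6 and 12 members at an unadjusted p under 0.05. With it, KCNMA1 passed at 2 h (0.61 ± 0.11, adjusted p = 0.000452) and KCNJ8 at 18 h (0.64 ± 0.18, 0.0489). The KCNK2 interaction at 6 h missed the threshold when any of 5 arrays was left out: untreated replicate 3 (-0.99, adjusted p = 0.0552) or 4 (-1.0, 0.0555), budesonide replicate 1 (-0.92, 0.0741) or 4 (-0.99, 0.0555), or combination replicate 2 (-0.94, 0.0715). Without all replicate 1 arrays the adjusted p was 0.275.

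At 18 h KCNK2 was high only in groups with budesonide. It read 7.13, 7.07, 6.94 and 7.17 with the combination, 7.16, 7.20, 6.95 and 7.35 with budesonide and 6.13, 6.26, 5.76 and 5.45 with formoterol, against 5.69, 5.86, 5.79 and 5.69 in untreated cells. The differences were 1.32 ± 0.18 and 1.41 ± 0.18 with the combination and with budesonide, and 0.14 with formoterol, whose arrays overlapped the untreated ones. The combination exceeded formoterol by 1.18 ± 0.18 (adjusted p = 3.28e-07). At 2 h the combination gave 0.60 ± 0.18 (adjusted p = 0.0185), which was lost without untreated replicate 1 (0.57, adjusted p = 0.0517) or 4 (0.56, 0.0638) or combination replicate 2 (0.53, 0.0853). Formoterol at 2 h gave 0.50 for KCNK2, with adjusted p = 0.106, and 0.00435 in a paired fit with the replicate number within each time as a block. The 4 other KCNK2 probe sets rose with budesonide at 18 h by 0.39 to 1.61, and all 4 passed. With formoterol at 6 h they differed by 0.22 to 1.14, and 2 passed.

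KCNT2, which codes for a sodium-activated potassium channel subunit, was at background until 6 h in every group and exceeded it at 18 h with budesonide. The 18 h arrays read 4.53, 4.59, 4.31 and 4.80 with the combination and 4.68, 4.44, 4.79 and 4.60 with budesonide, and 2.78, 2.40, 2.21 and 2.47 with formoterol, against 2.71, 3.05, 2.57 and 2.63 in untreated cells. The gap between the groups with and without budesonide was over 1 unit. Log2 differences were 1.82 ± 0.15 with the combination (adjusted p = 8.82e-16) and 1.89 ± 0.15 with budesonide (adjusted p = 2.24e-16). Since untreated cells were at background, the level itself was 1.39-fold and 1.46-fold above the background level. The 2 other KCNT2 probe sets, both at background, changed by -0.03 and 0.18 with budesonide at 18 h and did not pass.

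**Figure D2:**
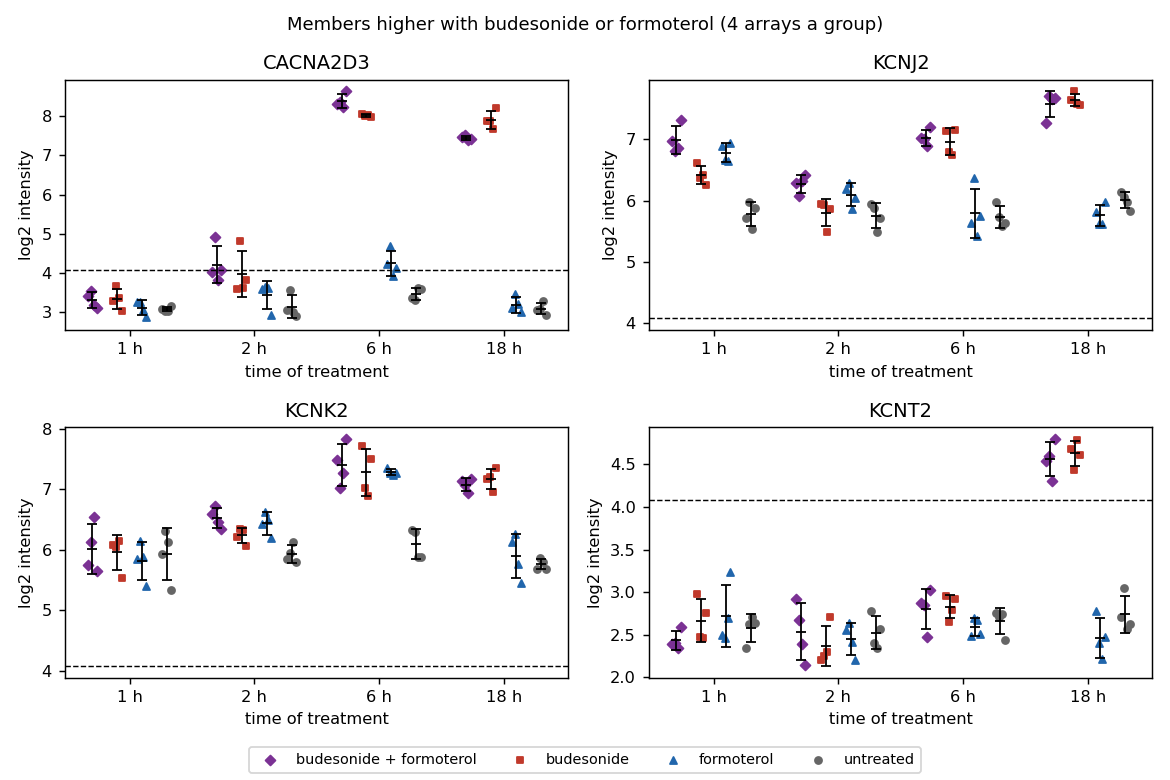
Log2 intensity (vertical axis) of CACNA2D3, KCNJ2, KCNK2 and KCNT2 on each array, by time and treatment. Points are arrays, black bars the mean ± SD of 4, and the dashed line the background level of 4.08. CACNA2D3 leaves background with budesonide at 6 and 18 h and KCNT2 at 18 h only, KCNJ2 is high with formoterol at 1 h only, and KCNK2 is high with each drug at 6 h.

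The stretch before the start of transcription is where general promoter motifs and some response elements lie, so the 250 bases upstream of the RefSeq start are shown for CACNA2D3, KCNJ2 and KCNT2, which rose with budesonide at 18 h, and for KCNK1, which rose with formoterol. KCNJ2 also rose with formoterol, by 1.00 at 1 h. KCNK2, which rose with formoterol at 6 h, is not shown. They are printed 5′ to 3′ on the strand of the gene (GRCh38.p14), with capitals for any match of the motifs searched. CACNA2D3 lies on the plus strand at chr3:54122302-54122551, KCNJ2 on the plus strand at chr17:70169282-70169531, KCNT2 on the minus strand at chr1:196608441-196608690 and KCNK1 on the plus strand at chr1:233613856-233614105.
CACNA2D3: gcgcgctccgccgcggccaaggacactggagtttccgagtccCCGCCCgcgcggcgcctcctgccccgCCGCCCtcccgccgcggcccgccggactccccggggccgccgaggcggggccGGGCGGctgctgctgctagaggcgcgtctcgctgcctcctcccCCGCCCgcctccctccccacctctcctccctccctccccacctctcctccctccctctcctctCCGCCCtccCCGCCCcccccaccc
KCNJ2: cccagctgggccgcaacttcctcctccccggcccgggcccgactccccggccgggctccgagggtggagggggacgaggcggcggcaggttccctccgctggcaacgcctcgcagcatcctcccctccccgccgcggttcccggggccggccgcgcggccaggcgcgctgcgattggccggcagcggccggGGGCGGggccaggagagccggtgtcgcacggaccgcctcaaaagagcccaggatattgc
KCNT2: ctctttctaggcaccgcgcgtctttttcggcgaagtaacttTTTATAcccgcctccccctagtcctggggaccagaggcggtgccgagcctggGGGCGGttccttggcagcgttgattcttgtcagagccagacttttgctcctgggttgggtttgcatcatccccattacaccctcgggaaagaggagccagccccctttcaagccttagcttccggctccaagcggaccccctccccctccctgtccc
KCNK1: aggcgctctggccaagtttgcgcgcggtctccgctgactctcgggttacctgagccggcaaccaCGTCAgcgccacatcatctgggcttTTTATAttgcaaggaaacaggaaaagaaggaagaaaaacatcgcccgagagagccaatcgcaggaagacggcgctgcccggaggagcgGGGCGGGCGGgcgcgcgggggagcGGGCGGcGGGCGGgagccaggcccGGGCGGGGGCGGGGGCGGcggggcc
Motifs were searched as exact letters on both strands: the glucocorticoid element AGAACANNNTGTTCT and its short form AGAACA, the cyclic AMP element TGACGTCA and its short form TGACG, the TATA box TATAAA and the GC box GGGCGG. The short forms also match within the long ones. CACNA2D3, KCNJ2 and KCNT2 held neither glucocorticoid form and neither cyclic AMP form, although KCNJ2 rose with both drugs. The capitals there are GC boxes (6, 1 and 1 matches) and the TATAAA letters of KCNT2 on the opposite strand. KCNK1 held 1 TGACG, 1 TATAAA and 7 GC boxes. Of all 35116 promoters, 0.00285% held the long glucocorticoid form, 12.4% the short one, 1.65% the long cyclic AMP form, 21.2% the short one, 10.7% the TATA box and 42.6% the GC box. Promoters were listed for 17 of the 24 members called in any comparison, and these 17 genes had 26 promoters. Of the 26, 1 held AGAACA (KCNIP4), 4 held TGACG (KCNG3, KCNH2, KCNJ8 and KCNK1), 4 held the TATA box and 19 held a GC box. Counted by gene, 16 of the 17 held a GC box in some promoter, which cannot be set beside the shares of promoters.

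KCNIP3, a calcium sensor that binds Kv4 channels and is also known as the transcriptional repressor DREAM, was higher at 2 and 6 h with the combination than with either drug alone. At 6 h it read 7.43, 7.76, 7.60 and 7.83 with the combination, 7.30, 7.09, 6.89 and 6.92 with budesonide and 6.46, 6.66, 6.24 and 6.32 with formoterol, against 6.38, 6.34, 6.24 and 6.22 in untreated cells. The combination lay above every other array, and formoterol overlapped untreated cells. The difference was 1.36 ± 0.12 with the combination (adjusted p = 1.76e-14) and 0.76 ± 0.12 with budesonide (adjusted p = 1.29e-06), and the combination exceeded budesonide by 0.60 ± 0.12 (adjusted p = 0.000278). Whether it exceeded the sum of both drugs did not pass the test (interaction 0.48 ± 0.17, adjusted p = 0.333).

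The same order was seen for KCNIP3 at 2 h, when the arrays read 6.87, 7.17, 6.93 and 7.03 with the combination and 6.53, 6.61, 6.59 and 6.40 with budesonide, against 6.11, 6.22, 6.43 and 6.35 in untreated cells. The combination differed from untreated cells by 0.72 ± 0.12 (adjusted p = 4.87e-06) and from budesonide by 0.47 ± 0.12 (adjusted p = 0.00800), the second of which was 0.41 without combination replicate 2 (adjusted p = 0.0583). At 18 h the differences from untreated cells were 0.72 ± 0.12 with the combination and 0.49 ± 0.12 with budesonide. The other KCNIP3 probe set averaged 3.39, at background. It differed by 0.23 with budesonide at 6 h, which did not pass, and rose by 0.44 at 18 h (adjusted p = 0.00476).

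KCNMA1, the pore-forming subunit of the BK channel, which opens with calcium and depolarisation and is known in airway cells for keeping the surface liquid hydrated, fell at 18 h. The arrays read 5.61, 5.88, 5.80 and 5.13 with the combination, 5.63, 6.29, 5.86 and 5.60 with budesonide and 6.64, 6.88, 6.92 and 6.68 with formoterol, against 7.11, 7.36, 7.10 and 6.68 in untreated cells. Every array with budesonide lay below every array without it. The difference was -1.46 ± 0.18 with the combination (adjusted p = 5.96e-10) and -1.22 ± 0.18 with budesonide (adjusted p = 1.00e-07), and formoterol alone gave -0.29, which did not pass (adjusted p = 0.562). The formoterol difference passed in the paired fit with the replicate number within each time as a block (adjusted p = 0.0234). Deviations of same-numbered arrays correlated by -0.11 to 0.24 in that comparison. Of the 5 other KCNMA1 probe sets, 3 fell with budesonide at 18 h (differences of -0.58, -1.01 and -1.40), and the other 2 averaged 2.47, at background. In 1 of the 3 formoterol at 18 h also passed, with -0.69 (adjusted p = 0.00142).

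Earlier, KCNMA1 was highest with the combination. At 2 h the arrays read 7.80, 8.22, 7.87 and 7.69 with the combination, 7.08, 7.66, 7.43 and 7.17 with budesonide and 7.21, 7.53, 7.30 and 7.07 with formoterol, against 7.21, 7.57, 7.46 and 7.07 in untreated cells. The difference from untreated cells was 0.57 ± 0.18 (adjusted p = 0.0248), and it missed the threshold without untreated replicate 1 (0.53, adjusted p = 0.0744) or 4 (0.48, 0.123) or combination replicate 2 (0.46, 0.154). None of the 5 other KCNMA1 probe sets passed there (-0.31 to 0.29). Same-numbered arrays deviated together at 2 h, and replicate 2 was the highest array in each of the 4 groups. In a paired fit, with the replicate number within each time as a block, the combination exceeded budesonide at 2 h by 0.56 ± 0.08 (adjusted p = 3.97e-07, against 0.0525 without the block), and the interaction at 2 h was 0.61 ± 0.11 (adjusted p = 0.000452, against 0.783). In the same fit the combination exceeded budesonide at 6 h by 0.40 ± 0.08 (adjusted p = 0.000175, against 0.199) and at 1 h by 0.36 ± 0.08 (adjusted p = 0.00318). The combination also exceeded untreated cells in that fit, by 0.31 ± 0.08 at 1 h (adjusted p = 0.00875) and by 0.34 ± 0.08 at 6 h (0.000785). The interaction at 6 h was 0.61 ± 0.11 there (adjusted p = 0.000335), and it was not called without the block.

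KCNMB4, an auxiliary beta subunit of the BK channel, rose at 6 h only, when its pore gene had not yet fallen. The arrays read 7.87, 7.90, 7.65 and 7.74 with the combination, 7.66, 7.85, 7.75 and 7.58 with budesonide and 7.10, 7.10, 7.03 and 6.90 with formoterol, against 7.08, 6.94, 6.97 and 6.84 in untreated cells. Groups with and without budesonide did not overlap. The differences were 0.83 ± 0.08 with the combination (adjusted p = 9.54e-13) and 0.75 ± 0.08 with budesonide (adjusted p = 4.05e-11). At 18 h they were -0.11 and 0.12, neither of which passed, and the effect differed between times for both (moderated F test, adjusted p = 2.73e-09 and 1.49e-06). The KCNMB4 rise was below 2-fold, so the gene fell outside the rule for values array by array and is given as the partner of KCNMA1, chosen after its values were seen. The other beta subunit genes did not pass against untreated cells: KCNMB2 and KCNMB3, above background in all and in some groups, and KCNMB1, at background.

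KCNIP1, another Kv4-binding calcium sensor, fell at 18 h. It read 4.66, 4.29, 4.04 and 4.58 with the combination, 4.51, 4.15, 4.59 and 4.89 with budesonide and 5.17, 4.86, 4.55 and 5.25 with formoterol, against 5.51, 5.31, 5.10 and 5.68 in untreated cells. The groups with budesonide lay below all untreated arrays, and formoterol arrays overlapped both. The differences were -1.0 ± 0.16 with the combination (adjusted p = 1.17e-06) and -0.86 ± 0.16 with budesonide (adjusted p = 2.71e-05), and -0.44 with formoterol, which did not pass (adjusted p = 0.226). The formoterol difference passed in the paired fit with the replicate number within each time as a block (adjusted p = 0.00239). Deviations of same-numbered arrays correlated by -0.11 to 0.24 in that comparison. The other KCNIP1 probe set fell by 0.95 with the combination and by 0.67 with budesonide and passed in both. At 18 h KCNIP1 and KCNIP3 thus moved in opposite directions, while KCNIP2 did not pass in any comparison with untreated cells. The Kv4 pore genes KCND1, KCND2 and KCND3 were at background.

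**Figure D3:**
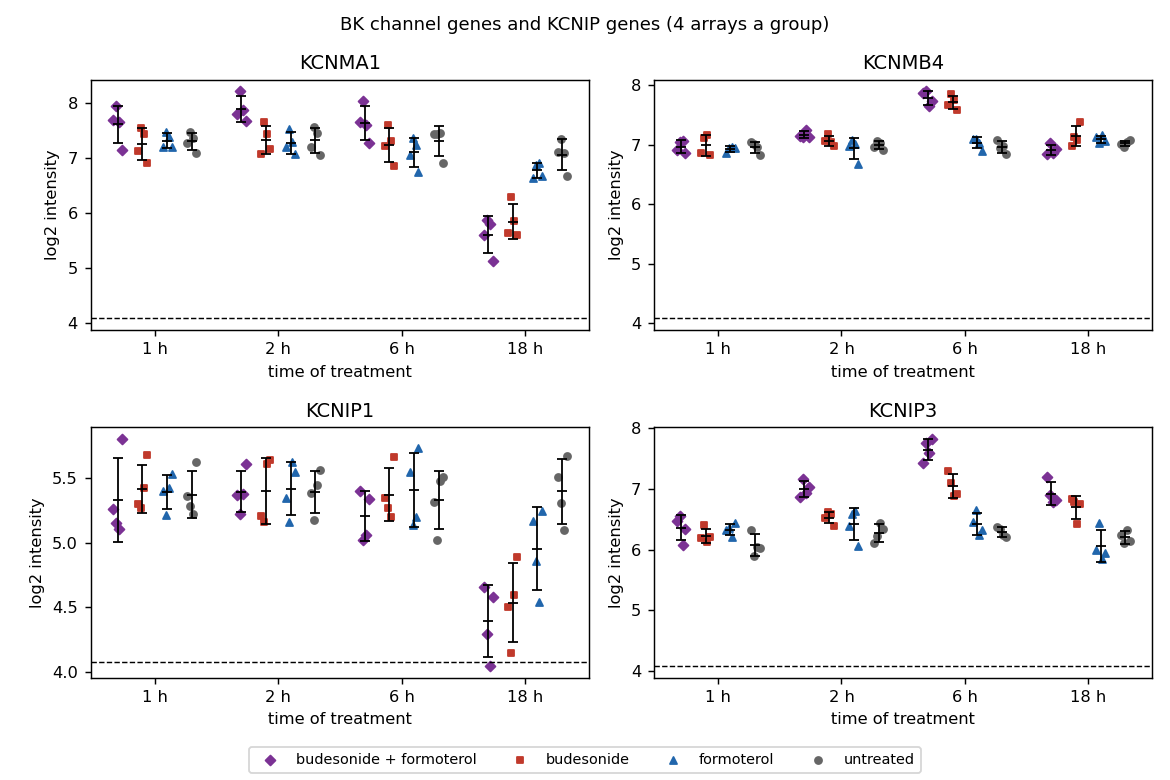
Log2 intensity (vertical axis) of the BK channel genes KCNMA1 and KCNMB4 and of KCNIP1 and KCNIP3 on each array, by time and treatment. Points are arrays, black bars the mean ± SD of 4, and the dashed line the background level of 4.08. KCNMB4 stands up at 6 h and KCNMA1 and KCNIP1 stand low at 18 h in both groups with budesonide, and KCNIP3 is highest with the combination at 2 and 6 h.

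KCNH7, a voltage-gated subunit of the ERG family, fell at 6 h with budesonide to the background level. The arrays read 4.30, 4.07, 3.70 and 4.23 with the combination and 3.98, 3.84, 4.26 and 4.45 with budesonide, against 4.85, 5.39, 5.33 and 5.09 in untreated cells, and formoterol gave 4.67, 5.62, 4.79 and 4.86. Both groups with budesonide lay below every untreated and formoterol array. The differences were -1.09 ± 0.27 with the combination (adjusted p = 0.00169) and -1.03 ± 0.27 with budesonide (adjusted p = 0.00415), and the other KCNH7 probe set fell by 0.62 and 0.67 and passed in both. At 18 h the differences were -0.44 and -0.68 and did not pass. With the replicate number within each time as a block, a paired fit, the 18 h budesonide difference of KCNH7 had adjusted p = 0.00868. Arrays of the gene varied widely at 2 h, where budesonide replicate 1 read 6.41 and the other 3 lay between 4.41 and 4.97, and untreated replicate 1 read 6.35.

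KCNH1 and KCNK1 did not reach 2-fold against untreated cells and are given array by array because the single drugs differed in direction, a choice made after their values were seen. KCNH1, the voltage-gated channel EAG1 known from dividing and tumour cells, moved in opposite directions with the single drugs. At 6 h it read 6.51, 6.48, 6.34 and 6.56 with the combination, 6.52, 6.31, 6.24 and 6.38 with budesonide and 7.71, 7.41, 7.30 and 7.72 with formoterol, against 7.31, 7.02, 6.92 and 7.20 in untreated cells. Budesonide and the combination lay below all untreated arrays, while formoterol overlapped them at the lower end. The differences were -0.64 ± 0.12 with the combination, -0.75 ± 0.12 with budesonide and 0.43 ± 0.12 with formoterol (adjusted p = 1.75e-05, 1.01e-06 and 0.0163). The KCNH1 rise with formoterol was lost without untreated replicate 2 (0.40, adjusted p = 0.0685) or 3 (0.36, 0.108) or formoterol replicate 1 (0.37, 0.0953) or 4 (0.36, 0.0992). At 18 h the falls were -0.57 ± 0.12 with the combination and -0.56 ± 0.12 with budesonide. The other KCNH1 probe set, which averaged 3.78, passed in none of these.

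KCNK1, the two-pore channel TWIK-1, was called against untreated cells with formoterol only in the fit without a block. At 2 h the arrays read 6.90, 6.82, 6.44 and 6.56 with the combination, 6.16, 6.18, 6.14 and 5.94 with budesonide and 7.31, 7.34, 7.14 and 6.90 with formoterol, against 6.72, 6.71, 6.19 and 6.41 in untreated cells. Formoterol lay above all untreated arrays and budesonide below them all. The difference was 0.66 ± 0.14 with formoterol (adjusted p = 0.000788) and -0.40 ± 0.14 with budesonide (adjusted p = 0.114, and 0.00931 in the paired fit with the replicate number within each time as a block). At 6 h KCNK1 differed by 0.50 ± 0.14 with formoterol (adjusted p = 0.0217), which was lost without untreated replicate 3 (0.47, adjusted p = 0.0689) or 4 (0.44, 0.1) or formoterol replicate 1 (0.41, 0.132). With budesonide at 6 h KCNK1 passed in the paired fit (-0.34, adjusted p = 0.0146). The combination exceeded budesonide at 2 h by 0.57 ± 0.14 (adjusted p = 0.00503) and at 6 h by 0.52 ± 0.14 (adjusted p = 0.0112, and 0.40 with adjusted p = 0.117 without budesonide replicate 3). At 2 h it lay below formoterol by -0.49 ± 0.14 (adjusted p = 0.0256), a call lost without any of 4 arrays: formoterol replicate 1 (-0.44, adjusted p = 0.107) or 2 (-0.44, 0.123), or combination replicate 3 (-0.41, 0.156) or 4 (-0.45, 0.0994).

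The other members that passed against untreated cells changed by less than 2-fold. KCNK15, a two-pore channel gene, rose by 0.83 ± 0.16 with the combination at 6 h (adjusted p = 2.90e-05) and by 0.70 ± 0.16 at 18 h, and KCNK15 also passed with the combination at 2 h (0.52), with formoterol at 6 h (0.50) and with budesonide at 18 h (0.48). These 3 calls were lost without any of 4, 6 and 3 arrays, the largest drops being to 0.47 without combination replicate 4, 0.37 without formoterol replicate 2 and 0.35 without untreated replicate 4 (adjusted p = 0.0744, 0.293 and 0.165). KCNK6, the two-pore channel TWIK-2, rose by 0.71 ± 0.19 with the combination at 6 h (adjusted p = 0.00403). In the paired fit with the replicate block within each time, KCNK6 also passed at 6 h with budesonide (0.53, adjusted p = 0.00311) and with formoterol (0.49, 0.014). KCNJ8, the Kir6.1 subunit of channels closed by ATP, fell by 0.84 ± 0.15 with budesonide at 18 h (adjusted p = 6.32e-06) but had no group mean above background. With the combination its 18 h difference was -0.37 ± 0.15 (adjusted p = 0.0606, and 0.0215 in the paired fit with the replicate block within each time). CACNG4, grouped by its symbol as an auxiliary gamma subunit gene, was lower at 18 h by -0.45 ± 0.11 with the combination (adjusted p = 0.00195) and by -0.36 ± 0.11 with budesonide (adjusted p = 0.0172). The second was lost without untreated replicate 1 (-0.24, adjusted p = 0.170) or 2 (-0.29, 0.0976) or budesonide replicate 1 (-0.32, 0.0706) or 2 (-0.28, 0.113), and without all replicate 1 arrays both were (adjusted p = 0.102 with the combination and 0.416 with budesonide).

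KCNE5, an auxiliary subunit gene of KCNQ1 channels, was higher by 0.39 ± 0.10 with budesonide at 6 h (adjusted p = 0.00357). The other KCNE5 probe set differed the other way there, by -0.36 ± 0.15 without passing, and the mean of both gave 0.02 (adjusted p = 0.954). With the compared arrays alone KCNE5 missed the threshold (adjusted p = 0.0618). CACNA1D, the L-type pore gene, was higher by 0.34 ± 0.12 with the combination at 18 h (adjusted p = 0.0343), which was lost when any of 5 of the 8 arrays was left out (0.27 to 0.34, with adjusted p of 0.163 without combination replicate 2). At background in all groups were KCNG1 (0.63 ± 0.15 with formoterol at 2 h), KCNG3 (0.53 ± 0.14 with the combination at 1 h), KCNH2 (0.41 ± 0.12 with budesonide at 18 h), KCNIP4 (-0.37 ± 0.11 with the combination at 18 h) and KCNQ1OT1 (-0.77 ± 0.26 with the combination at 2 h). Single arrays also ended the calls of KCNG3 (0.41, adjusted p = 0.198, without untreated replicate 4, and 0.48 and 0.47 without combination replicate 2 or 3), KCNH2 (0.34, 0.0585, without untreated replicate 4), KCNIP4 (-0.26, 0.116, without untreated replicate 4) and KCNQ1OT1 (-0.55, 0.286, without untreated replicate 4). The heat map of log2 differences shows all 22 members.

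**Figure D4:**
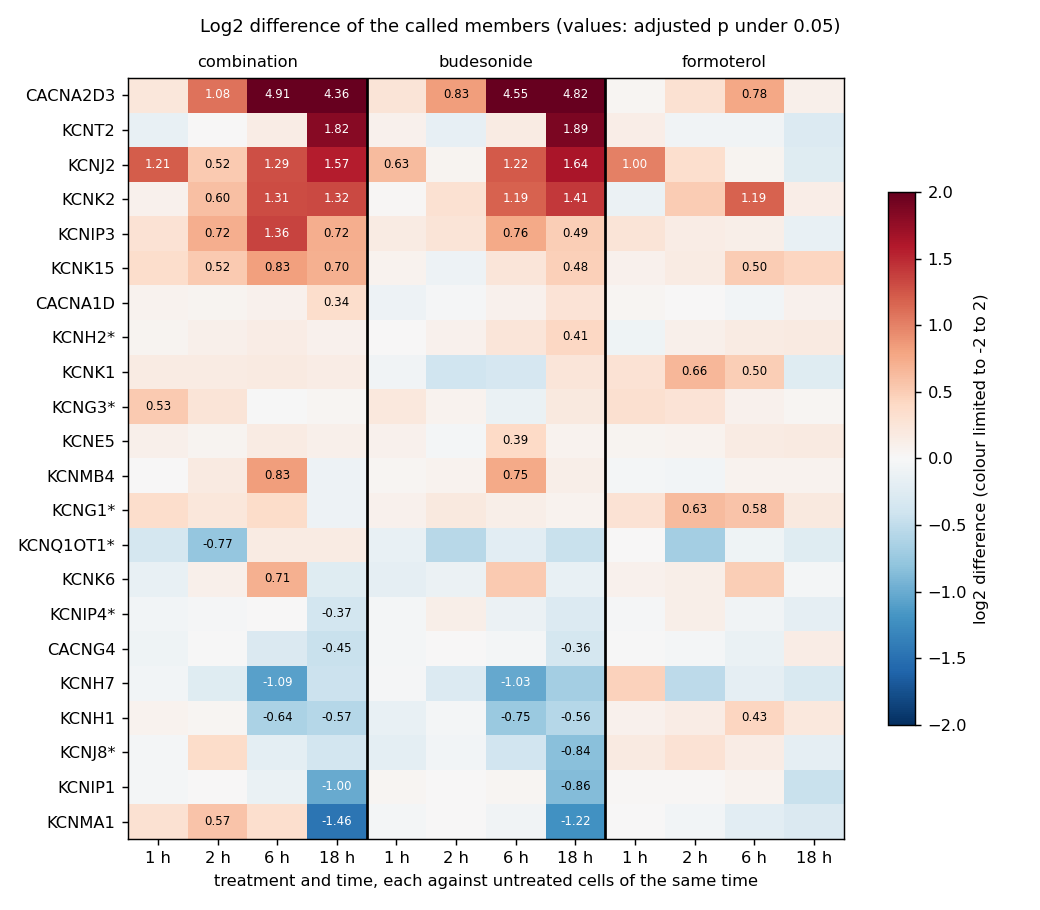
Log2 difference from untreated cells of the same time for the 22 members called in at least 1 such comparison (rows), for the combination, budesonide and formoterol at 1, 2, 6 and 18 h (columns). Values are printed where the adjusted p is under 0.05, colours stop at -2 and 2, and an asterisk marks genes at background in all groups. CACNA2D3 reaches 4.91 with the combination at 6 h, and the formoterol columns hold 1 called member at 1 h, 2 at 2 h, 6 at 6 h and none at 18 h.

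Adding formoterol to budesonide changed few members. The combination differed from budesonide in 1 member at 1 h (1.47% of all genes), 4 at 2 h (4.38%), 3 at 6 h (6.72%) and none at 18 h by limma (0.651%), where 8 had an unadjusted p under 0.05. All of these were higher in the combination (1.20%, 2.83% and 3.91% of all genes were at 1, 2 and 6 h): KCNJ2 at 1 h by 0.57 ± 0.14, KCNIP3, KCNJ2, KCNK1 and KCNK15 at 2 h, and KCNIP3, KCNK1 and KCNK15 at 6 h. The KCNJ2 difference at 1 h (adjusted p = 0.00955) was 0.46 without combination replicate 4 (adjusted p = 0.132) and 0.52 without budesonide replicate 4 (0.0668). That of KCNJ2 at 2 h (0.47, adjusted p = 0.0305) was 0.36 without budesonide replicate 3 (0.215) and 0.46, 0.45 and 0.42 without combination replicate 1, 3 or 4 (0.0687, 0.0793 and 0.123). That of KCNK15 at 2 h (0.63, 0.00628) was 0.50 without budesonide replicate 3 (0.0760), and that of KCNK15 at 6 h (0.58, 0.0105) was 0.48 without budesonide replicate 4 (0.0778) and 0.52 without combination replicate 1 (0.0514). In the paired fit with the replicate block within each time, 7 members passed at 2 h in place of 4, and 8.45% of all genes passed in that fit. The additional members were KCNAB3 (-0.49, adjusted p = 0.0285), KCNJ8 (0.42, 0.0287) and KCNMA1. At 18 h KCNJ8 (0.47, adjusted p = 0.0237) and KCNMB4 (-0.23, 0.0371) passed in it. The same paired fit called further members against untreated cells: CACNA2D4 with formoterol at 2 h (0.34, adjusted p = 0.0481), KCNJ8 (0.37, 0.0396) and KCNK16 (0.32, 0.0283) with the combination at 2 h, and KCNU1 with budesonide at 18 h (-0.39, 0.0493). It also called CACNA2D2 with the combination at 1 h (0.36, 0.0458). At 6 h it called KCNG1 with the combination (0.37, 0.0498) and KCNJ8 with budesonide (-0.38, 0.0268).

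Adding budesonide to formoterol changed more members as time went on: none at 1 h by limma (1.27% of all genes, with 5 members at an unadjusted p under 0.05), 4 at 2 h (4.15%), 7 at 6 h (13.4%) and 12 at 18 h (17.6%). At 18 h 6 were higher (8.95% of all genes) and 6 lower (8.66%) in the combination, and 5 differed at least 2-fold (2.58% of all genes): CACNA2D3 by 4.26 ± 0.18, KCNT2 by 2.09 ± 0.15, KCNJ2 by 1.82 ± 0.14, KCNK2 by 1.18 ± 0.18 and KCNMA1 by -1.17 ± 0.18. Of the members called here at 18 h, KCNJ14 (-0.43 ± 0.12) and KCNK9 (-0.45 ± 0.15), both at background, passed in no other comparison. Without formoterol replicate 4 they were -0.33 and -0.33 (adjusted p = 0.0748 and 0.195), and KCNK9 had adjusted p = 0.0625 without formoterol replicate 3 and 0.131 without combination replicate 3. The paired fit with the replicate block within each time called KCNMA1 at 1 h (0.30 ± 0.08, adjusted p = 0.0289) and KCNMB4 at 2 h (0.23 ± 0.07, adjusted p = 0.0211). Untreated cells at 18 h and 1 h differed in no member by limma (0.364% of all genes, with 4 members at an unadjusted p under 0.05), and with the replicate number as a block over all times, in a paired fit, KCNH1 was higher at 18 h by 0.35 ± 0.07 (adjusted p = 0.00182, against 0.251 without the block).

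The effect of a treatment differed between times, by the moderated F test over 1, 2, 6 and 18 h, for 10 members with budesonide (12.7% of all genes), 3 with formoterol (4.51%; KCNJ2, KCNK1 and KCNK2) and 11 with the combination (22.6%). The budesonide members were CACNA2D3, KCNH1, KCNIP1, KCNIP3, KCNJ2, KCNJ8, KCNK2, KCNMA1, KCNMB4 and KCNT2, and the combination added KCNK6. KCNJ2 with formoterol was called only at 1 h, KCNK2 with formoterol only at 6 h (in the paired fit also at 2 h), and KCNMB4 with budesonide only at 6 h. CACNA2D3 was called with budesonide at 2, 6 and 18 h, and KCNT2, KCNIP1 and KCNMA1 with budesonide only at 18 h.

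Genes whose chosen probe set was flat could still have another that changed. After the values were seen, every probe set of the members was fitted as its own feature, and 2 members not called above had another probe set that passed with a change of at least 2-fold. Over all genes, with each of the 44994 probe sets fitted, 41 of the 6609 genes that were not called and had several probe sets had another that passed at that size (0.62%), and 2 of 63 such members (3.17%), which is given as a description. These were CACNB2, a beta subunit that brings calcium channel pores to the membrane, and KCNE4, an auxiliary subunit that damps Kv channels. The CACNB2 set read 5.13, 5.12, 4.91 and 4.69 with the combination at 18 h and 5.44, 5.00, 5.17 and 4.77 with budesonide, against 2.76, 2.85, 2.74 and 2.60 in untreated cells. It was thus below background in untreated cells and above it with budesonide, with differences of 2.22 ± 0.16 and 2.36 ± 0.16 (adjusted p = 2.18e-18 and 1.98e-19), and of 1.10 and 1.30 at 6 h. Counted from the background level, its 18 h means were 1.84-fold above it with the combination and 2.02-fold with budesonide. The chosen CACNB2 set changed by 0.08 and 0.01 at 18 h.

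The KCNE4 set was highest early and with the combination. At 1 h it read 3.73, 3.90, 3.48 and 4.17 with the combination, 3.06, 2.67, 2.77 and 2.87 with budesonide and 2.67, 2.52, 2.54 and 2.42 with formoterol, against 2.64, 2.43, 2.11 and 2.25 in untreated cells. All combination arrays lay above all others, although only 1 of them exceeded the background level. The difference was 1.46 ± 0.19 at 1 h (adjusted p = 2.21e-08) and 1.31 ± 0.19 at 2 h (adjusted p = 1.82e-07), and 0.57 and 0.54 at 6 and 18 h. The chosen KCNE4 set changed by 0.03 and 0.09 at 1 and 2 h and did not pass.

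**Figure D5:**
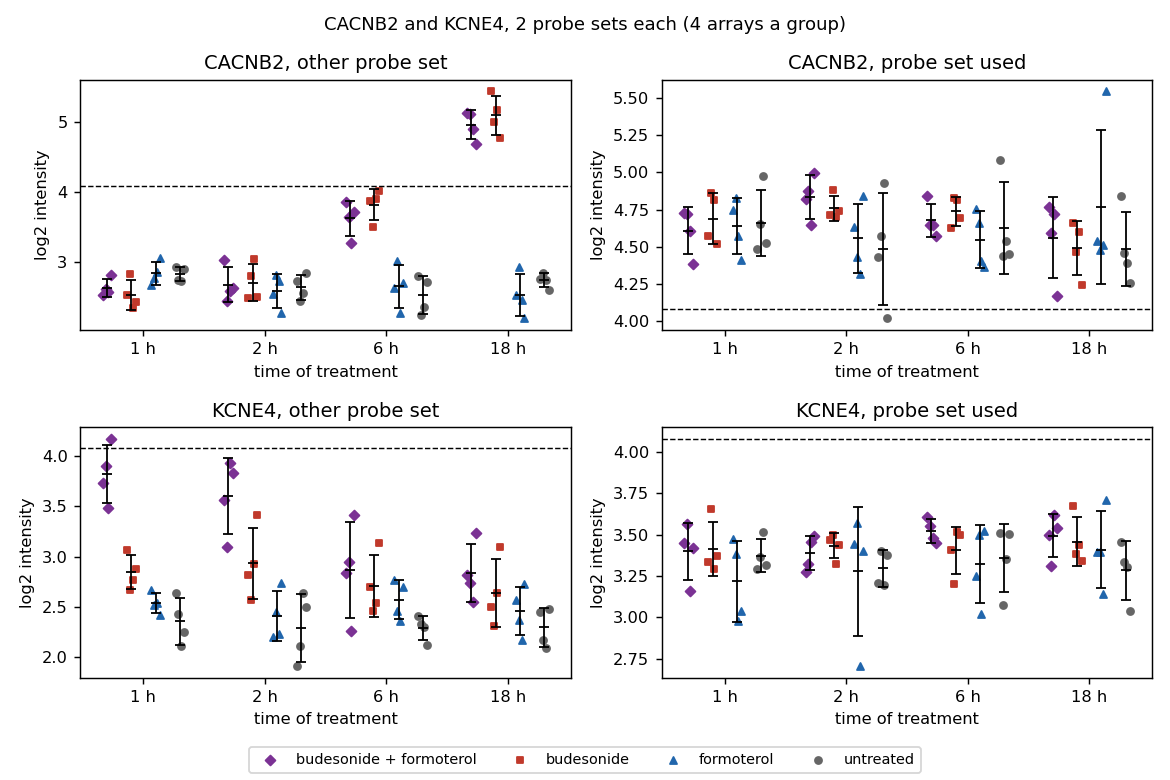
Log2 intensity (vertical axis) on each array for 2 probe sets of CACNB2 (upper row) and of KCNE4 (lower row), by time and treatment. The probe set with the larger change stands left and the one that represented the gene right; points are arrays, black bars the mean ± SD of 4, and the dashed line the background level of 4.08. The left CACNB2 set rises with budesonide to 5.10 at 18 h, and the left KCNE4 set reaches 3.82 with the combination at 1 h.

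Of the 38 channel genes above background in all groups, 27 (71.1%) passed in no comparison with untreated cells, against 48.6% of the 11451 genes of any kind in that class. Among these 27 were the L-type pore gene CACNA1C, the T-type pore genes CACNA1G and CACNA1I, the epithelial channels KCNN4 and KCNQ1, the inward rectifiers KCNJ11 and KCNJ12 and the leak channels KCNK4, KCNK7 and KCNK16 (the last passed with the combination at 2 h in the paired fit). Log2 differences over the 12 comparisons lay between -0.25 and 0.24 for KCNN4, between -0.13 and 0.16 for KCNQ1 and between -0.12 and 0.16 for CACNA1C. The other calcium channel genes among them were CACNA2D2, CACNB1, CACNB2, CACNG1, CACNG6, CACNG7 and CACNG8. Of these CACNA2D2 passed with the combination at 1 h in the paired fit (0.36, adjusted p = 0.0458), and CACNB2 had the other probe set, described above, that rose with budesonide. The other potassium channel genes were KCNA7, KCNAB2, KCNAB3, KCNC1, KCNC4, KCNG2, KCNH3, KCNMB2, KCNN1 and KCNS3.

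Other genes of ion transport and calcium handling, a list of 35 of which 30 were measured, were more often lower than higher where they passed with budesonide or the combination at 6 and 18 h. The combination gave 2 higher and 1 lower at 2 h (10% of the list, beside 9.49% of all genes). It gave 3 higher and 7 lower at 6 h, and 3 higher and 8 lower at 18 h. With budesonide 1 was higher and 6 lower at 6 h, and 2 higher and 8 lower at 18 h. At 6 and 18 h these were 33.3% and 36.7% of the list with the combination and 23.3% and 33.3% with budesonide, beside 18.6%, 21.0%, 14.2% and 18.3% of all genes. Of the 12528 genes above background in at least 1 group, 25.8%, 29.2%, 19.9% and 25.4% were called. The directions over all genes at 6 h are not given here. Over all genes at 18 h, 10.3% were higher and 10.7% lower with the combination, and 8.56% and 9.78% with budesonide. Formoterol gave 1 higher and 1 lower at 2 h, 2 higher and 2 lower at 6 h and 2 lower at 18 h. These were 6.67%, 13.3% and 6.67% of the list, beside 4.60%, 4.81% and 1.11% of all genes. No gene of the list passed at 1 h, when 0.998% of all genes did with budesonide, 1.34% with formoterol and 2.76% with the combination. SCNN1A, the alpha subunit of the epithelial sodium channel, rose by 2.76 ± 0.17 with the combination and by 3.10 ± 0.17 with budesonide at 18 h. ITPR1, which releases calcium from the endoplasmic reticulum, moved in opposite directions with the single drugs at 6 h, by -0.92 ± 0.15 with budesonide and by 1.47 ± 0.15 with formoterol. The calcium pump gene ATP2B4 fell at 18 h, by -1.46 ± 0.21 with the combination and by -1.33 ± 0.21 with budesonide, and the calcium-activated chloride channel gene ANO1 fell by 0.95 ± 0.14 and by 0.73 ± 0.14.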

How the data were processed

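RNA of 64 cultures was hybridised to Affymetrix arrays. The authors' deposited values are on a log2 scale, 1 for each probe set and array, and came from RMA, per the submitters' processing notes. Its version and the set of arrays normalized together are not given in the sources used here. No sequencing depth applies to arrays, and precision is limited by how many there were.

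Of 49395 probe sets, 44994 carried 1 gene symbol, and the brightest on average stood for each of 18132 genes. A further 5 probe sets that pair a KCN or CACN symbol with other symbols were left out. One limma 3.58.1 model in R 4.3.3 held 16 group means (48 residual degrees of freedom, intensity trend) and gave 25 contrasts, adjusted by Benjamini-Hochberg within each, and a moderated F test compared times. The fit was tested on simulated data. Figures used Python 3.11.15 and matplotlib 3.10.9, and promoters are from RefSeq (GRCh38.p14).

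Values array by array are given for members called against untreated cells with a 2-fold change, no overlap and a group mean above background. Other called members are named with their largest change and the rest by class. Members, lists and this rule were chosen with earlier results of these data known. Replicates carry numbers 1 to 4 whose meaning the labels leave unstated. Deviations of same-numbered arrays from their group means correlated above 0.1 for every pair in 12 of 21 comparisons of 2 groups, including all 5 at 2 h. There a blocked value is given where it changes a call, and some blocked values are also given for the other comparisons. Alternatives were 2 forms of replicate block, median centring, repeated quantile normalization, no intensity trend, omission of dim genes, averaging of probe sets, the compared arrays alone, and arrays left out. The 3′ to 5′ actin signal was highest in replicate 1 at 1, 6 and 18 h.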

Additional observations from a re-analysis of the deposited data

Results flagged for a closer look

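In 11 of 188 groups of 4 arrays tested, 1 array stood apart from the other 3 by Dixon's test, and chance gives about 1 in 20. These arrays were CACNA2D3 in formoterol at 2 h, replicate 4 (2.92), KCNE5 in budesonide at 6 h, replicate 4 (4.0), KCNG1 in untreated cells at 2 h, replicate 3 (2.37), and KCNJ2 in the combination at 18 h, replicate 1 (7.27). For the two-pore genes they were KCNK1 in budesonide at 2 h, replicate 4 (5.94), KCNK2 in budesonide at 1 h, replicate 4 (5.54), KCNK9 in the combination at 18 h, replicate 3 (2.68), and KCNK15 in the combination at 18 h, replicate 4 (4.37), and in untreated cells at 6 h, replicate 3 (3.48). The others were KCNMA1 (6.90) and KCNT2 (2.44) in untreated cells at 6 h, replicate 4.

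The budesonide effect differed between the 4 times by limma's moderated F test for CACNA2D3 (adjusted p = 4.19e-25), KCNH1 (0.00213), KCNIP1 (0.00303), KCNIP3 (0.0338), KCNJ2 (7.26e-09), KCNJ8 (0.0184), KCNK2 (1.46e-05), KCNMA1 (0.000121), KCNMB4 (1.49e-06) and KCNT2 (4.13e-12). The formoterol effect did for KCNJ2 (adjusted p = 2.21e-05), KCNK1 (0.00761) and KCNK2 (0.00119). The combination's effect did for CACNA2D3 (adjusted p = 7.72e-25), KCNH1 (0.000161), KCNIP1 (0.000665), KCNIP3 (1.3e-05), KCNJ2 (0.000117), KCNJ8 (0.0263), KCNK2 (7.17e-05), KCNK6 (0.0213), KCNMA1 (6.16e-10), KCNMB4 (2.73e-09) and KCNT2 (4.98e-12). At 6 h the budesonide effect on KCNK2 differed with and without formoterol, with an interaction of -1.065.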

How the results depend on the processing

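Of 93 calls of a member in a comparison, 60 held whichever array was left out, 59 held under every other alternative, 53 held under both, and none changed direction. The counts that follow are of members only. A setting can also change the calls over all genes, so a changed count is no result about the channel genes in particular. With 1 array left out the number of members called ranged, with the combination against untreated cells, from 1 to 2 at 1 h, 3 to 7 at 2 h, 9 to 10 at 6 h and 10 to 13 at 18 h. With budesonide it ranged from 1 to 2 at 2 h, 8 to 10 at 6 h and 10 to 14 at 18 h, and with formoterol from 2 to 3 at 2 h and 2 to 6 at 6 h. The combination against budesonide gave 0 to 1 at 1 h, 2 to 5 at 2 h and 2 to 3 at 6 h, and against formoterol 2 to 4 at 2 h, 6 to 7 at 6 h and 9 to 15 at 18 h. The interaction at 6 h gave 0 to 1. Without all replicate 1 arrays, budesonide at 1 h called 0 members, the combination at 2 h 3, against budesonide 1 and against formoterol 2, formoterol at 6 h 2 and the interaction at 6 h 0; the cause was not tested. With the replicate number within each time as a block, the combination at 1 h called 4, against budesonide 3 and against formoterol 1. At 2 h budesonide called 2, formoterol 4, the combination against budesonide 7 and the interaction 1 (KCNMA1), and at 6 h the interaction called 3 (KCNK2, KCNMA1 and KCNH1). At 18 h formoterol called 3 (KCNH1, KCNIP1 and KCNMA1), the combination against budesonide 2 and the interaction 1 (KCNJ8). That block is nested in time and gives no value for untreated cells between times. A replicate block by number over all times gave other counts: the combination against budesonide called 2 at 1 h and 1 at 18 h, against formoterol 1 at 1 h, budesonide 2 at 2 h, the interaction 1 at 2 h and 2 at 6 h, formoterol 2 at 18 h, and untreated cells at 18 h against 1 h 1. No call of a member was lost with either block. With dim genes left out, the combination at 1 h and formoterol at 2 h called 1 each. With the compared arrays alone, which leaves fewer arrays to estimate the spread, the combination at 1 h called 1, budesonide at 2 h 0, the combination at 2 h 2 against budesonide and 2 against formoterol, formoterol at 6 h 3, and the combination against budesonide at 18 h 1. With the mean of a gene's probe sets, the combination against formoterol called 1 at 1 h and 2 at 2 h, budesonide 2 at 2 h, and formoterol 1 at 2 h and 2 at 6 h. With a member counted when any of its probe sets passed, an alternative chosen after seeing the data, the combination called 2 against budesonide and 1 against formoterol at 1 h, budesonide 3 at 2 h and 15 at 6 h, the combination against formoterol 12 at 6 h, and formoterol 1 at 18 h. With the lower quartile as the level, 26 members were at background in place of 60. Levels near background limit what the 60 can show.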
